A study of Peromyscus maniculatus and Peromyscus polionotus and Peromyscus maniculatus x Peromyscus polionotus with 18 samples.

Results

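The genes described here are 10 genes by which interneurons of the forebrain are commonly sorted into classes: Pvalb, Sst, Vip, Reln, Calb2, Cck, Lhx6, Lamp5, Nxph1 and Erbb4. They were chosen by name, with symbols matched without regard to case. No measured value entered the rule, though earlier results of these data were known when the genes were chosen. All 10 were among the 20731 gene rows of the table for the parental species, and 5 of them (Sst, Vip, Reln, Lamp5 and Nxph1) were among the 11928 rows of the allele counts of the hybrids. The other 5 are not analysed in the hybrids.

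The series profiled whole-brain RNA of male Peromyscus mice in 18 libraries, 3 in each of 6 groups. The oldfield mouse, P. polionotus, is known for long burrows that end in an escape tunnel, and the deer mouse, P. maniculatus, for short simple ones. The parental groups were P. polionotus after a burrowing trial, P. polionotus after a control trial, P. maniculatus after a burrowing trial and P. maniculatus after a control trial. The remaining groups were F1 hybrids of a P. maniculatus by P. polionotus cross after a burrowing trial and F1 hybrids after a control trial. All animals were adults of about 50 to 80 days, carried no engineered allele that the labels mention, and had been through 2 pretest trials in sand enclosures before a random draw set their last trial. Thus control animals had also met the enclosure earlier. The sources used here do not give what a control trial consisted of or which species was the mother of the hybrids. Nothing says whether animals of a group were littermates, so the p-values measure the spread between these samples.

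Interneurons are inhibitory neurons that release GABA onto nearby cells, and their classes differ in the targets they contact and in the peptides and calcium-binding proteins they carry. In rodents, classes marked by Pvalb or Sst arise in the medial ganglionic eminence under the transcription factor Lhx6, while classes marked by Vip, and many of those marked by Reln, Calb2, Cck or Lamp5, arise in the caudal eminence. None of the 10 genes is confined to cortical interneurons. In rodent brains Pvalb is also made by Purkinje cells, Calb2 and Reln by cerebellar granule cells, Cck and Lamp5 by excitatory forebrain neurons, and Sst by hypothalamic neurons. In whole-brain RNA, fewer cells of a type and less RNA per cell cannot be told apart.

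Parental levels are TPM, a unit of transcript abundance corrected for transcript length and library size. Setting genes side by side rests on that length correction, whose tool is not given. TPM keep no record of depth, so the error given with them is the spread between libraries alone. In the hybrids, 11415175 to 53906964 allele-assigned counts were read per animal, with a polionotus share of 52.6% to 53.1%. An earlier look at these data had shown 3 libraries apart from the rest (replicate 3 of polionotus burrowing, replicate 2 of polionotus control and replicate 3 of maniculatus control). Test results that rest on them are given with and without them. A gene is called below where its adjusted p (Benjamini-Hochberg over all genes tested) was under 0.05. The sources used here do not say whether reads of both species mapped equally well.

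Sst, the somatostatin peptide precursor, had by far the highest TPM of the genes, with a mean of 899 TPM over the 12 parental libraries and a range of 609 to 1192.5 TPM. It stood above 99.2% of the genes that averaged 1 TPM or more. Below it came Lamp5 (188 TPM), a lysosome-associated membrane protein of neurogliaform cells, Cck (154 TPM), the cholecystokinin precursor, Pvalb (112 TPM), the calcium buffer of fast-spiking cells, and Calb2 (69.8 TPM), the calretinin gene. The ranges of Lamp5, Cck and Pvalb each overlapped that of the next gene in that order. Within a library, Cck was above Lamp5 in polionotus control replicate 2 (157 and 150.2 TPM). It was below Pvalb in polionotus burrowing replicate 3 (89.4 and 118 TPM) and maniculatus control replicate 3 (98.5 and 139.6 TPM). Pvalb was above Calb2 in every library. Vip, the vasoactive intestinal peptide precursor, had 34.1 TPM and overlapped neither neighbour, and Lhx6, the lineage transcription factor, had 17.4 TPM and overlapped neither. Reln, a secreted glycoprotein that guides neuronal positioning, and Nxph1, a secreted ligand of neurexins, overlapped each other at 4.07 and 3.29 TPM. Erbb4, a receptor tyrosine kinase for neuregulins, was lowest at 0.853 TPM, with a range of 0.784 to 1.04 TPM. The hybrids gave another order of the counted genes. Counts summed over both alleles were scaled to the animal's total of allele-assigned counts (CPM). Their means were 485 CPM for Reln, 140 for Lamp5, 100.4 for Sst, 92.2 for Nxph1 and 30.1 for Vip. These counts are not corrected for transcript length and cover only reads assigned to an allele. What sets the orders apart was not tested.

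**Figure D1:**
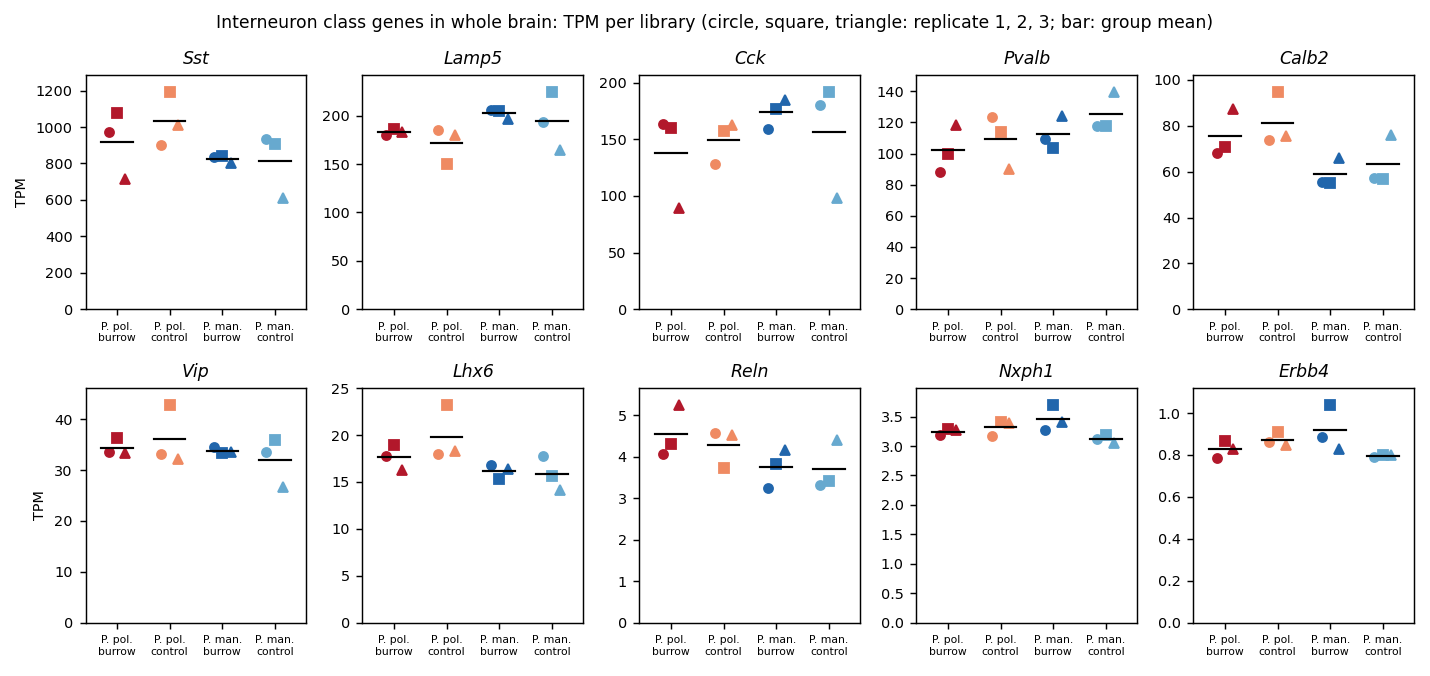
TPM of each gene in the 12 parental libraries, by group, with P. polionotus left of P. maniculatus and burrowing left of control. Points are single libraries (circle, square and triangle for replicates 1, 2 and 3), bars are group means and every axis starts at 0. Calb2 averaged 78.4 TPM in polionotus brains and 61.2 TPM in maniculatus brains, and the low triangles of Cck are polionotus burrowing replicate 3 at 89.4 TPM and maniculatus control replicate 3 at 98.5 TPM.

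The species comparison asks which genes differ between the brains of a complex and a simple burrower. It gave calls for 2 of the 9 genes above the filter of 1 TPM, Calb2 and Lhx6, both higher in polionotus brains. Among all 14366 genes tested, 52.4% were called, 32.6% as higher and 19.8% as lower, so 2 of 9 lay under the background share. The median log2 difference was 0.09 over these 9 genes and 0.06 over all genes. For none of the 9 genes were the libraries of the species without overlap, against 32.8% of all genes. With quantile normalization the split of all calls was 3826 higher and 3857 lower in polionotus brains, against 4688 and 2841 as deposited.

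Calb2 had 68.2, 70.7 and 87.4 TPM in polionotus burrowing libraries and 73.9, 94.8 and 75.5 TPM in polionotus control libraries. In P. maniculatus it had 55.6, 55.1 and 66.0 TPM in burrowing libraries and 57.4, 57.0 and 75.8 TPM in control libraries. Only maniculatus control replicate 3 reached into the polionotus range. The means were 78.4 ± 10.4 TPM in polionotus brains and 61.2 ± 8.20 TPM in maniculatus brains (SD, n = 6 libraries each). On the log2(TPM + 1) scale the difference was 0.35 (SE 0.10, adjusted p = 0.0121), a ratio of 1.28 with a 95% interval of 1.10 to 1.49. Calb2 kept its call in all 21 alternative settings, with log2 differences of 0.29 to 0.42.

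Lhx6 had 17.7, 18.9 and 16.3 TPM in polionotus burrowing libraries and 17.98, 23.2 and 18.3 TPM in polionotus control libraries. In P. maniculatus it had 16.7, 15.4 and 16.4 TPM in burrowing libraries and 17.8, 15.6 and 14.1 TPM in control libraries. The species overlapped, and polionotus control replicate 2 was the highest of the 12. The means were 18.7 ± 2.35 TPM in polionotus brains and 16.0 ± 1.27 TPM in maniculatus brains (SD, n = 6 each), a log2 difference of 0.21 (SE 0.08, adjusted p = 0.0363). The call was lost with quantile normalization (0.14, adjusted p = 0.165) and median scaling (0.14, adjusted p = 0.166). It was also lost with the level of hindbrain and spinal cord genes as a covariate (0.11, adjusted p = 0.191). Leaving out any of maniculatus burrowing replicates 2 or 3, maniculatus control replicates 2 or 3, polionotus burrowing replicates 1 or 2, or polionotus control replicate 2 also ended it, with adjusted p from 0.0575 to 0.0848.

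Hindbrain and spinal cord genes moved with that library: the 14 listed genes, all in the table, summed to 10.9 TPM in polionotus control replicate 2 and 22.3 TPM in polionotus control replicate 3. The sums were 36.9 TPM in polionotus control replicate 1, 47.2 to 56.3 TPM in polionotus burrowing libraries and 35.5 to 53.3 TPM in maniculatus brains. Their part in the Lhx6 result was addressed only by the covariate above, which overlaps the species contrast in control animals. There 10 of the 12 hindbrain genes tested were called lower in polionotus brains, against 1853 of all 14366 genes. The covariate therefore cannot separate hindbrain content from species. Without the 3 libraries apart, Lhx6 differed by 0.14 and was called.

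Sst and Pvalb, the main markers of the classes that arise under Lhx6, leaned in opposite directions, and neither was called. Sst had 970.0, 1078 and 712 TPM in polionotus burrowing libraries and 902, 1192.5 and 1009 TPM in polionotus control libraries. It had 835, 842 and 803 TPM in maniculatus burrowing libraries and 932, 905 and 609 TPM in maniculatus control libraries. The lowest Sst value of each species came from a library that stood apart, polionotus burrowing replicate 3 and maniculatus control replicate 3. The means were 977 ± 163 TPM in polionotus brains and 821 ± 114 TPM in maniculatus brains (log2 difference 0.25, SE 0.13, adjusted p = 0.132), with a 95% interval of the ratio from 0.974 to 1.45. Without polionotus burrowing replicate 3 the difference was 0.33 (adjusted p = 0.0379), and without maniculatus control replicate 3 it was 0.15 (adjusted p = 0.280). With the hindbrain covariate it was 0.08 (adjusted p = 0.586). Pvalb ranged from 88.4 to 123 TPM with a median of 107 TPM in polionotus brains and from 104 to 139.6 TPM with a median of 118 TPM in maniculatus brains. Its log2 difference was -0.17 (SE 0.10, adjusted p = 0.153), and of the alternatives it passed only with median scaling (-0.24, adjusted p = 0.0466). Without polionotus control replicate 3 it was -0.11 (adjusted p = 0.327).

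Among genes of the caudal classes, Vip differed least between the species means. It ranged from 32.1 to 42.7 TPM in polionotus brains (median 33.4) and from 26.7 to 35.8 TPM in maniculatus brains (median 33.6). The log2 difference was 0.09 (SE 0.08, adjusted p = 0.381), with a 95% interval from -0.09 to 0.28. Without maniculatus control replicate 3 or without polionotus control replicate 2 it was 0.03 (adjusted p = 0.743 and 0.757). Reln ranged from 3.73 to 5.24 TPM in polionotus brains (median 4.41) and from 3.24 to 4.41 TPM in maniculatus brains (median 3.62). Its log2 difference of 0.19 (SE 0.08, adjusted p = 0.0754) passed without maniculatus control replicate 3 (0.25, adjusted p = 0.0262) or without polionotus control replicate 2 (0.23, adjusted p = 0.0451). It also passed with the hindbrain covariate (0.29, adjusted p = 0.0158).

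Lamp5 and Cck had lower means in polionotus brains, and neither was called. Lamp5 ranged from 150.2 to 186 TPM in polionotus brains (median 182) and from 165 to 225 TPM in maniculatus brains (median 201). The log2 difference was -0.16 (SE 0.07, adjusted p = 0.0994), and without maniculatus control replicate 3 it was -0.21 (adjusted p = 0.0174). Without maniculatus control replicate 2 it was -0.10 (adjusted p = 0.221), and without polionotus control replicate 2 -0.11 (adjusted p = 0.203). Cck had 163, 160.1 and 89.4 TPM in polionotus burrowing libraries and 128, 157 and 162 TPM in polionotus control libraries. In P. maniculatus it had 159, 176 and 185 TPM in burrowing libraries and 179.9, 192 and 98.5 TPM in control libraries. The same library pair that was lowest in Sst was lowest in Cck. The log2 difference was -0.20 (SE 0.19, adjusted p = 0.394), and the SE was the widest of the 9 genes. Leaving out polionotus burrowing replicate 3 gave -0.06 (adjusted p = 0.779), while leaving out maniculatus control replicate 3 gave -0.35 (adjusted p = 0.0759).

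Nxph1 and Erbb4, which act at the cell surface and the synapse, varied least over the 12 libraries, with coefficients of variation of 5.22% and 8.20%. Within P. maniculatus alone that of Erbb4 was 11.1%, above those of Lhx6, Vip, Lamp5 and Pvalb. Nxph1 ranged from 3.16 to 3.42 TPM in polionotus brains and from 3.05 to 3.69 TPM in maniculatus brains. Its log2 difference was -0.00 (SE 0.04, adjusted p = 0.981), with a 95% interval of the ratio of TPM + 1 from 0.935 to 1.07. At levels this low the added 1 makes the interval narrower than that of TPM itself, and the same holds for Erbb4. Erbb4 ranged from 0.784 to 0.910 TPM in polionotus brains and from 0.788 to 1.04 TPM in maniculatus brains. It was below the filter, and in a fit with no filter its log2 difference was -0.00 (SE 0.03, adjusted p = 0.934).

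Without the 3 libraries apart, 6 of the 9 genes were called between species, and 52.7% of all genes. Calb2 (0.31), Lhx6 (0.14), Reln (0.24) and Sst (0.18) were then higher in polionotus brains, and Cck (-0.23) and Lamp5 (-0.17) were lower. The count of calls thus moved with which libraries entered, and Calb2 was the gene called either way and with every scaling tried.

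**Figure D2:**
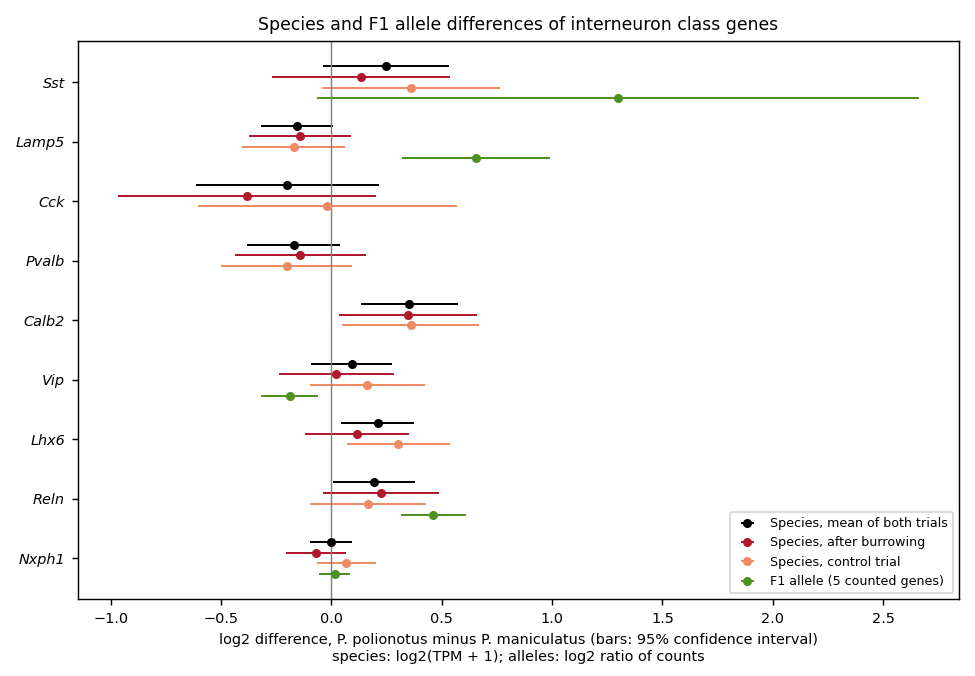
Log2 differences of P. polionotus minus P. maniculatus for 9 genes, as the mean of both trials, after burrowing and in the control trial, and of the polionotus minus the maniculatus allele in F1 hybrids for the 5 counted genes. Bars are 95% confidence intervals. Calb2 lies above 0 in each species contrast, Reln (0.46) and Lamp5 (0.66) have positive allele differences, and the interval of the Sst allele difference (1.30) reaches from -0.06 to 2.66.

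Split by trial, the species contrast gave 0 calls among the 9 genes after burrowing and 1 in control animals, against 34.1% and 39.6% of all genes. The control call was higher in polionotus brains, as were 26.8% of all genes. After burrowing, 1 gene had an unadjusted p under 0.05 in limma. That gene was Calb2 (0.35, SE 0.14, adjusted p = 0.0806), and it passed without maniculatus control replicate 3 (adjusted p = 0.0489), whose spread is shared by all groups in the fit. Calb2 and Lamp5 did not overlap between species after burrowing, a pattern shared by 50.5% of all genes. Without the 3 libraries apart, Calb2 (0.24, adjusted p = 0.0449) and Sst (0.31, adjusted p = 0.00920, against 0.13 with them) were called after burrowing, and 38.4% of all genes. Lamp5 had 180.3, 186 and 183 TPM in polionotus burrowing libraries and 206, 205 and 196 TPM in maniculatus burrowing libraries.

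In control animals the called gene was Lhx6, at 17.98, 23.2 and 18.3 TPM in polionotus brains and 17.8, 15.6 and 14.1 TPM in maniculatus brains. The log2 difference was 0.30 (SE 0.11, adjusted p = 0.0425), without overlap, as in 50.1% of all genes. Without the 3 libraries apart it was 0.12 (adjusted p = 0.265) and was not called. Calb2 (0.38, adjusted p = 0.0117), Reln (0.34, adjusted p = 0.0274) and Cck (-0.36, adjusted p = 0.0389) were called in its place, and 37.4% of all genes. It did not pass with quantile normalization (0.21, adjusted p = 0.171), with median scaling (0.20, adjusted p = 0.185), with the hindbrain covariate (0.05, adjusted p = 0.811) or with no expression filter (0.30, adjusted p = 0.0507). It also failed without polionotus control replicate 2 (0.19, adjusted p = 0.142), maniculatus control replicate 3 (0.23, adjusted p = 0.140) or maniculatus control replicate 2 (0.29, adjusted p = 0.101). Leaving out any maniculatus burrowing replicate, or polionotus burrowing replicate 1 or 2, gave adjusted p from 0.0512 to 0.0568. Without maniculatus control replicate 3, Calb2 (0.49, adjusted p = 0.0190) and Lamp5 (-0.28, adjusted p = 0.0397) passed in its place. Whether the Lhx6 difference itself changed with the trial was tested by the species by trial term, which was -0.19 (SE 0.15, adjusted p = 0.992).

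Within groups several of the genes varied together. After each group's mean was subtracted, Sst and Cck had a Pearson correlation of 0.92 over the 12 libraries, Vip and Lhx6 0.83, Sst and Lhx6 0.80, and Sst and Vip 0.79. Reln ran the other way, with -0.86 against Sst, -0.78 against Lhx6 and -0.75 against Vip, and Calb2 and Lamp5 had -0.76. These are descriptions over libraries that share dissection, preparation and scaling. Maniculatus control replicate 3 was the lowest of the 12 in Sst (609 TPM) and Vip (26.7 TPM) and the highest in Pvalb (139.6 TPM). Polionotus control replicate 2 was the highest in Sst (1192.5 TPM), Vip (42.7 TPM), Lhx6 (23.2 TPM) and Calb2 (94.8 TPM), and the lowest in Lamp5 (150.2 TPM).

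Markers of other cells moved with these libraries. The 10 excitatory cortical and hippocampal genes, all detected, summed to 1484 TPM in polionotus burrowing replicate 3 and 1503 TPM in maniculatus control replicate 3. In the others of their species they summed to 1649 to 1897 TPM in polionotus brains and 1726 to 1924 TPM in maniculatus brains. Of 12 cerebellar granule and Purkinje genes, 10 were in the table. They summed to 2223 TPM in polionotus burrowing replicate 3 and 2311 TPM in maniculatus control replicate 3, and to 1496 TPM in polionotus control replicate 2. The remaining libraries ran from 1437 to 2087 TPM, a range that holds the 1496 TPM. The 7 astrocyte genes summed to 2263 TPM in maniculatus control replicate 3, against 1784 to 2028 TPM in the other maniculatus libraries and 1585 to 1797 TPM in polionotus brains. No defining gene of these lists was at 0 in all libraries. Their part in the interneuron gene values was not tested.

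**Figure D3:**
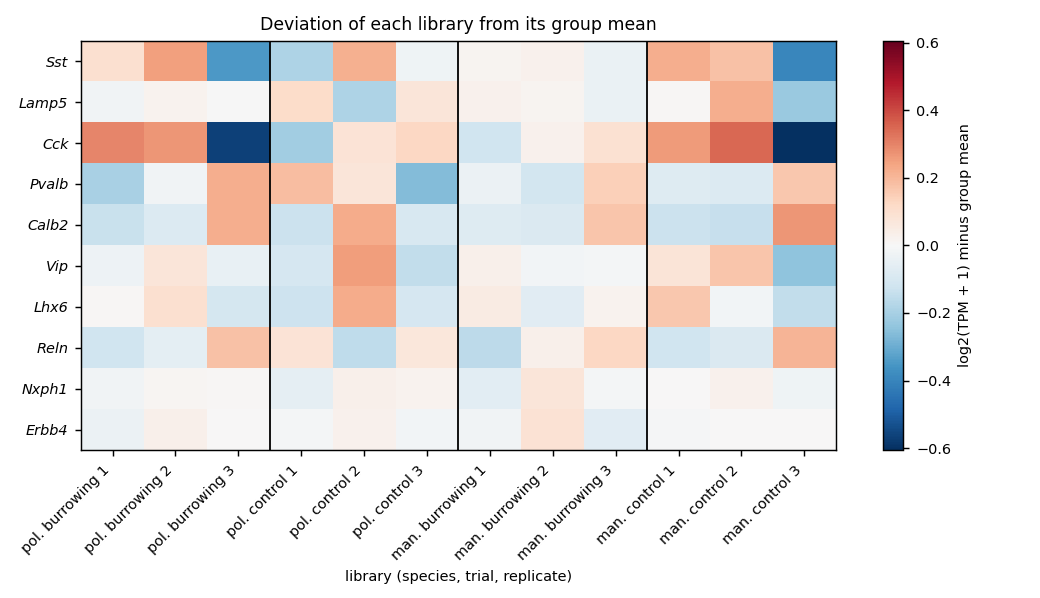
Deviation of each of the 12 parental libraries from its group mean, on the log2(TPM + 1) scale, with genes in order of mean level and groups separated by vertical lines. Red is above and blue below the group mean. Sst and Cck are both blue in polionotus burrowing replicate 3 and in maniculatus control replicate 3, where Reln is red.

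For none of the genes was the closest match across these libraries another of the 10, but Reln, Nxph1 and Erbb4 were below the search limit of 5 TPM. With 9669 genes searched, this cannot show whether the 10 vary together. Among 9669 genes that averaged 5 TPM or more, the closest by the same group-centred correlation over 12 libraries was Them6 for Sst (0.98), Ufc1 for Pvalb (0.95), Cdc34 for Vip (0.95), Rnf152 for Reln (0.98) and Dgcr8 for Calb2 (0.98). For Cck it was Cactin (0.99), for Lhx6 the ribosomal protein gene Rps16 (0.97), for Lamp5 B3galt2 (0.98), for Nxph1 Fpgs (0.94) and for Erbb4 Hspa2 (0.94). Each is the highest of many correlations over few libraries and is given as a description.

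The trial comparisons ask what a last bout of burrowing left in the brain. None of the 9 genes was called in either species, and none had an unadjusted p under 0.05 in limma. Of all genes 0% were called in polionotus brains and 0.00696% in maniculatus brains, with 446 and 291 genes at an unadjusted p under 0.05. Differences of burrowing minus control ran from -0.18 to 0.10 in polionotus brains and from -0.15 to 0.20 in maniculatus brains on the log2 scale. The single-gene 95% intervals reached from -0.75 to 0.43 in polionotus brains and from -0.45 to 0.79 in maniculatus brains, so moderate changes of Cck or Sst were not detectable with 3 libraries a group.

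The smallest p in maniculatus brains was that of Nxph1, at 3.27, 3.69 and 3.42 TPM in burrowing libraries and 3.13, 3.19 and 3.05 TPM in control libraries. These did not overlap, as in 7.23% of all genes, and the difference of 0.11 (SE 0.06, adjusted p = 1) did not pass. In P. polionotus the smallest p was that of Lhx6, at -0.15 (SE 0.11, adjusted p = 0.998), and it was 0.01 without the 3 libraries apart. None of the 9 genes had trials without overlap in polionotus brains, against 6.45% of all genes. The species by trial term of the 9 genes ran from -0.36 to 0.06, with none called and none at an unadjusted p under 0.05 in limma, against 415 of all genes.

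In F1 hybrids both alleles sit in the same cells, and the share of counts on the polionotus allele compares them. Among the 5 counted genes, 3 were called in edgeR: Reln and Lamp5 with more polionotus counts and Vip with fewer. The background was 55.7% of 11928 genes called, 34.2% with more and 21.5% with fewer polionotus counts. The same allele was higher in all 6 animals for 3 of the 5 (Sst, Reln and Vip), and for 53.6% of all genes. The median log2 allele difference of all genes was 0.11 with both alleles held to the same library size, and -0.05 when each allele column was scaled to its own total, an alternative added after the data were seen. Under that scaling the split of all calls was 2932 with more and 4201 with fewer polionotus counts, against 4074 and 2567.

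Reln had polionotus shares of 59.3%, 60.3% and 54.5% in F1 burrowing animals and 60.0%, 58.9% and 54.3% in F1 control animals. All 6 animals lay above 50%, and replicate 3 of both trials was lower than the rest. Behind each share stood 4707 to 28538 counts, and the Wilson 95% interval of the lowest share was 53.7% to 54.9%. The mean was 57.9% ± 2.73 (SD, n = 6), a log2 allele difference of 0.46 (SE 0.06, adjusted p = 0.00101). It passed in all 13 alternatives, with differences of 0.30 to 0.56. Both replicates 3 carry labels that name the animals in another form than the other hybrids, and without them the difference was 0.56 (adjusted p = 0.000600).

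Lamp5 had polionotus shares of 64.3%, 48.2% and 64.1% in F1 burrowing animals and 63.0%, 63.0% and 63.8% in F1 control animals. F1 burrowing replicate 2 stood alone, with 2502 polionotus and 2694 maniculatus counts and an interval of 46.8% to 49.5%. Its maniculatus allele was at 92.9 CPM (counts scaled to the animal's total of allele-assigned counts), against 43.4 to 55.1 CPM in the other 5 animals, while its polionotus allele, at 86.3 CPM, lay within their range of 76.2 to 93.9 CPM. The mean share was 61.0% ± 6.34 (SD, n = 6), and the log2 allele difference was 0.66 (SE 0.14, adjusted p = 0.00755). It did not pass without both replicates 3 (0.57, adjusted p = 0.0792), and without F1 burrowing replicate 2 it was 0.81 (adjusted p = 9.05e-06).

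Sst differed widely between animals of the same trial. Its polionotus share was 50.1%, 89.1% and 83.9% in F1 burrowing animals and 84.3%, 50.7% and 50.7% in F1 control animals. With 1329 to 4876 counts behind each share, the widest Wilson 95% interval ran from 48.2% to 53.1%, and these intervals cover counting error only. Both trials held animals near 50% and animals above 80%. The maniculatus allele was at 56.2, 7.86 and 13.9 CPM in F1 burrowing animals and 18.3, 61.2 and 44.6 CPM in F1 control animals. The polionotus allele was at 56.3, 64.6 and 72.3 CPM in F1 burrowing animals and 98.1, 62.9 and 45.9 CPM in F1 control animals. Summed over both alleles, Sst was at 113, 72.4 and 86.2 CPM in F1 burrowing animals and 116, 124 and 90.5 CPM in F1 control animals.

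The mean Sst share of 68.1% ± 19.4 (SD, n = 6) lay far from every animal, and the log2 allele difference of 1.30 (SE 0.56, adjusted p = 0.0932) was not called. DESeq2 called it (1.31, adjusted p = 0.0183). The range of 39.1 percentage points was reached or passed by 5.71% of the 9354 genes with at least 100 counts in every animal. The same was true of 27.8% of genes for the Lamp5 range and 60% for the Reln range. The median range of all these genes was 7.79 points.

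Vip had shares of 44.1%, 47.7% and 44.7% in F1 burrowing animals and 49.0%, 46.5% and 48.3% in F1 control animals, below 50% in all 6. Only 331 to 1560 counts stood behind each share, and the Wilson intervals of 4 of the 6 animals reached above 50%. The mean was 46.7% ± 1.99 (SD, n = 6), a log2 allele difference of -0.19 (SE 0.05, adjusted p = 0.0237). It did not pass without F1 burrowing replicate 1 (-0.16, adjusted p = 0.0620), F1 burrowing replicate 3 (-0.17, adjusted p = 0.0670), F1 control replicate 2 (-0.19, adjusted p = 0.0544) or both replicates 3 (-0.18, adjusted p = 0.109).

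Nxph1 was the most even, with shares of 49.6%, 51.2% and 51.4% in F1 burrowing animals and 49.3%, 50.3% and 49.8% in F1 control animals. The mean was 50.3% ± 0.849 (SD, n = 6), and the log2 allele difference was 0.01 (SE 0.03, adjusted p = 0.687). Scaled to its own total per allele the sign turned and the gene was called (-0.15, adjusted p = 0.00612). A share range as wide as its 2.05 points or wider was found in 93.9% of genes.

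**Figure D4:**
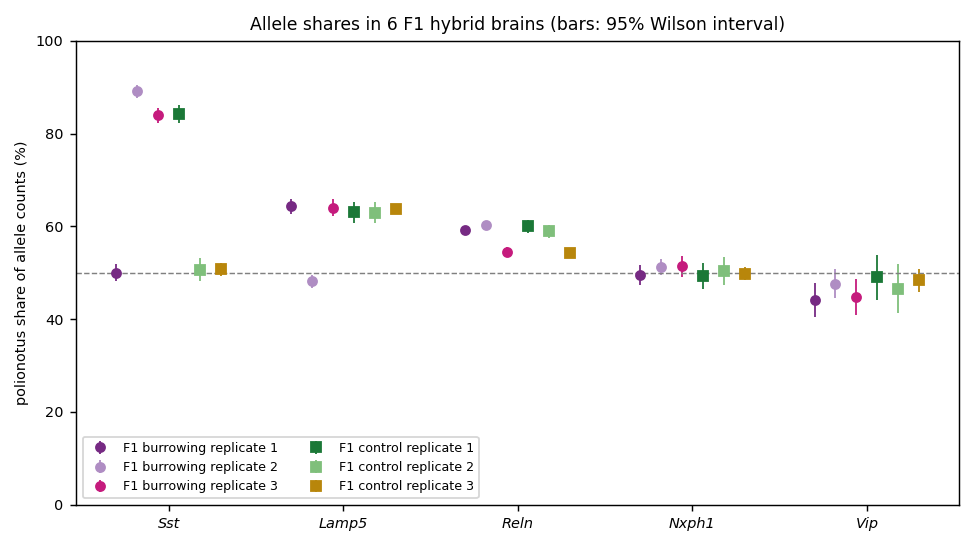
Polionotus share of allele-assigned counts for the 5 counted genes in each of 6 F1 animals, burrowing animals (circles) left of control animals (squares), with 95% Wilson intervals for counting error and a dashed line at 50%. Sst lies near 50% in 3 animals and between 83.9% and 89.1% in the others, and Lamp5 lies at 48.2% in F1 burrowing replicate 2 and between 63.0% and 64.3% elsewhere.

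Around Sst and Reln, but not around Lamp5, most of the counted genes beside the gene set the same animals apart. Gene order was read from a RefSeq annotation of P. maniculatus, and the 5 nearest counted genes on each side were taken, a look chosen after the shares were seen. For neighbours, counted means protein-coding genes with at least 100 counts in every animal, so genes with fewer counts were passed over. Of the 10 genes around Sst, 7 (Tbccd1, Rfc4, St6gal1, Masp1, Bcl6, Il1rap and Ostn) had their highest shares in the same 3 animals as Sst, a pattern shown by 5.68% of the 9354 genes. Masp1, the nearest counted gene on one side, had shares of 42.5%, 89.9% and 92.3% in F1 burrowing animals and 92.1%, 49.7% and 40.6% in F1 control animals. Bcl6, the nearest on the other side, had 47.6%, 75.0% and 76.1% in F1 burrowing animals and 80.2%, 47.3% and 45.7% in F1 control animals. Dnajb11, in the same stretch, was even across animals at 4.87% to 7.77%, and Ccdc50 at 50.4% to 53.0%.

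Around Reln, 5 of 10 genes (Napepld, Orc5, Kmt2e, Srpk2 and Pus7) had their lowest shares in both replicates 3, as Reln did, against 8.18% of genes. A further 4 (Fam185a, Armc10, Pmpcb and Psmc2) had their highest shares in these animals, so that 9 of 10 set both replicates 3 apart in either direction, against 15.7% of genes. Psmc2, the nearest counted gene on one side, had shares of 55.6%, 54.2% and 74.9% in F1 burrowing animals and 53.1%, 54.4% and 74.6% in F1 control animals. Orc5, the nearest on the other, had 70.5%, 70.9% and 56.4% in F1 burrowing animals and 71.7%, 73.0% and 59.6% in F1 control animals.

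Around Lamp5, 3 of 10 genes (Crls1, Snap25 and Ism1) had their lowest share in F1 burrowing replicate 2, against 20.5% of genes, and 5 of 10 had it at either end, against 43.5% of genes. Both counts were near the background, and in Crls1 and Ism1 that animal was lower than the next by little (50.8% and 53.2%, 43.0% and 43.7%). The nearest counted gene on one side was Snap25, a core protein of synaptic vesicle fusion. It had 79.2%, 50.7% and 77.3% in F1 burrowing animals and 78.1%, 79.1% and 77.5% in F1 control animals. Plcb4, the nearest on the other side, had 51.4%, 48.2% and 52.2% in F1 burrowing animals and 49.8%, 35.9% and 37.1% in F1 control animals, so that F1 control replicates 2 and 3 were its lowest. Around Vip and Nxph1 the median share range of the 10 neighbours was 10.7 and 4.70 points, against 29.0 points around Sst, 14.9 points around Reln and 11.9 points around Lamp5. Neighbouring genes share chromosomes and animals and are not independent, and what sets single animals apart was not tested.

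**Figure D5:**
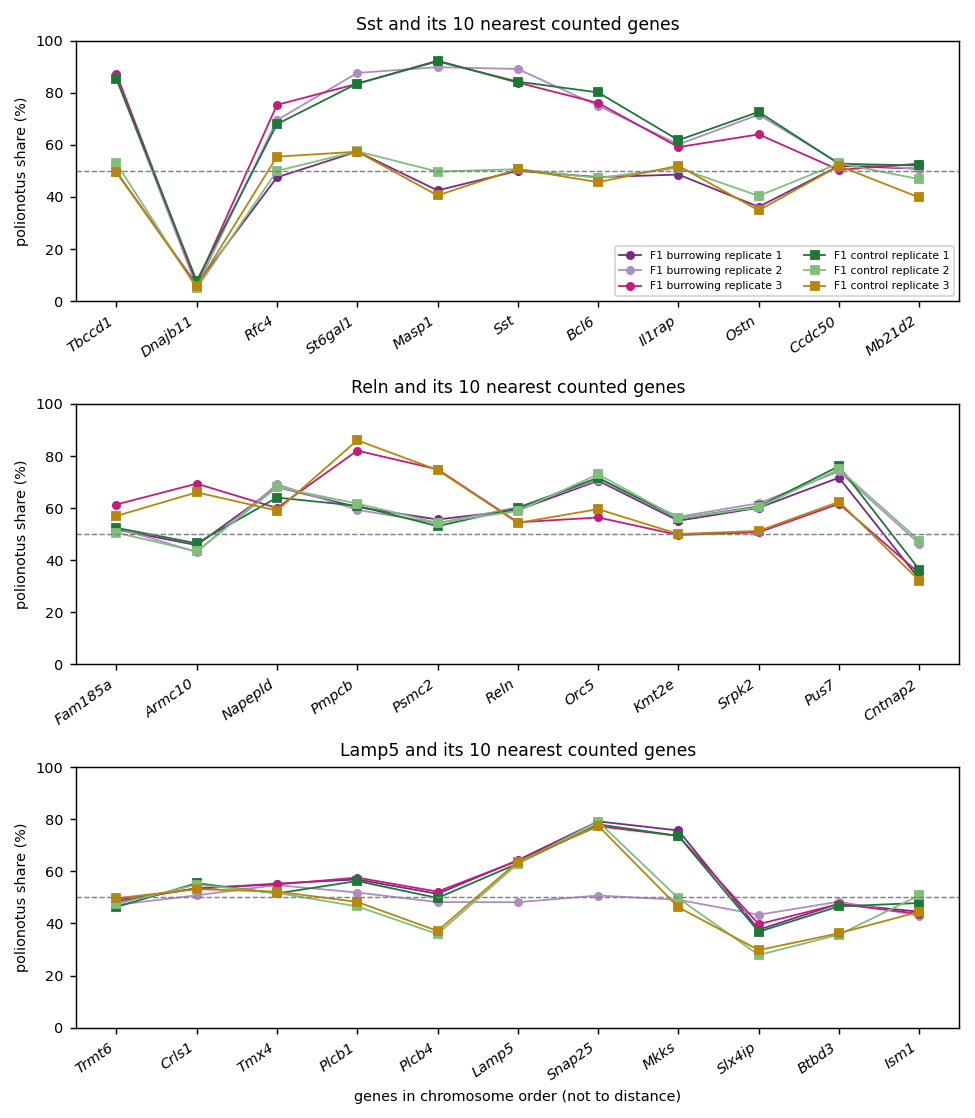
Polionotus share in each F1 animal for Sst, Reln and Lamp5 and their 10 nearest protein-coding genes with at least 100 counts in every animal. Genes are in chromosome order (even spacing, not distance), with burrowing animals as circles and control animals as squares. Lines join the genes of an animal, and the dashed line marks 50%. Masp1, beside Sst, runs from 40.6% to 92.3%, and Snap25, beside Lamp5, lies at 50.7% in F1 burrowing replicate 2 and at 77.3% or more in the others.

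Set beside each other, the species and the allele differences of the 5 counted genes were 0.19 and 0.46 for Reln, -0.16 and 0.66 for Lamp5, 0.09 and -0.19 for Vip, -0.00 and 0.01 for Nxph1, and 0.25 and 1.30 for Sst. The species values are on the log2(TPM + 1) scale and the allele values are log2 ratios of counts. Lamp5, Vip and Nxph1 had opposite signs, though none of their species differences was called and those of Nxph1 were near 0. The species value of Vip turned negative with the hindbrain covariate (-0.014) and without the 3 libraries apart (-0.021). The difference between species and allele values was not tested.

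Between F1 burrowing and F1 control animals, summed counts of the 5 genes differed by -0.31 to 0.18 on the log2 scale, with none called by edgeR and none at an unadjusted p under 0.05. Of all genes 0% were called, and 90 had an unadjusted p under 0.05, while DESeq2 called 2. Sst had the smallest p (-0.31, SE 0.22, adjusted p = 0.965). The allele by trial term of the 5 genes ran from -0.26 to 1.06, with none called and none at an unadjusted p under 0.05, against 0.226% of all genes called. The widest was Sst, with an SE of 1.12.

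Genes that work with these markers were read from lists chosen by function. Of 9 tested receptors of the peptides, 4 were higher and 1 was lower in polionotus brains. The counts were 4 and 3 with quantile normalization and also without the 3 libraries apart. These lay above the 53.5% and 52.7% of all genes called in those settings. As deposited, a count of 5 of 9 is near the 52.4% of all genes called (32.6% higher, 19.8% lower). The median log2 difference of the 9 was 0.08, against 0.06 over all genes. Sstr5, a somatostatin receptor, had 7.31 ± 1.71 TPM in polionotus brains and 2.72 ± 0.984 TPM in maniculatus brains (SD, n = 6 each; log2 difference 1.17, SE 0.19, adjusted p = 0.000411). Sstr3, another, had 55.5 ± 2.59 TPM in polionotus brains and 76.8 ± 6.52 TPM in maniculatus brains (-0.46, SE 0.06, adjusted p = 0.000103). Vipr1 (0.32) and Adcyap1r1 (0.28), receptors of the VIP and PACAP family, were higher in polionotus brains. For these 4 receptors the species did not overlap, as in 32.8% of all genes, and the calls held in all 21 alternatives.

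In the hybrids, 2 of 8 receptors had more and 3 had fewer polionotus counts, near the 55.7% of all genes called (34.2% more, 21.5% fewer). Their median was -0.07, against 0.11 over all genes. Cckbr, a cholecystokinin receptor (share 56.1% ± 1.34, SD, n = 6), and Vipr1 (54.8% ± 2.28) had more, and Sstr4 (44.4% ± 2.16), Sstr3 (38.9% ± 7.81) and Vipr2 (40.3% ± 8.08) had fewer. Vipr1 did not pass with each allele scaled to its own total (0.12, adjusted p = 0.147) or without both replicates 3 (0.29, adjusted p = 0.0708). Sstr3 did not pass without F1 control replicate 1 (-0.66, adjusted p = 0.0622), and Vipr2, with as few as 25 counts in an animal, failed in 7 of 12 alternatives. In a model without a term per animal, Cckbr (adjusted p = 0.0815) and Sstr4 (adjusted p = 0.109) did not pass.

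Reln signals through the receptors Lrp8 and Vldlr and the adaptor Dab1. Of 7 pathway genes tested (median 0.00), 2 were higher in polionotus brains and 2 were lower, near the 52.4% of all genes called. Lrp8 (0.30) and Fyn, a kinase (0.17), were higher, and Vldlr (-0.14) and Dab1 (-0.17) were lower. Lrp8 had 20.1 ± 1.49 TPM in polionotus brains and 16.2 ± 1.78 TPM in maniculatus brains (SE 0.07, adjusted p = 0.00642) and held in all 21 alternatives. The Fyn, Dab1 and Vldlr calls were lost in 10, 9 and 4 of 21. In the hybrids Lrp8 was called, with a share of 55.0% ± 1.51 (SD, n = 6; log2 0.29, adjusted p = 0.000999), and it was the only one of 6 pathway genes called there (median 0.01), against 55.7% of all genes. With each allele scaled to its own total, 1 was called with more and 3 with fewer polionotus counts. Under that scaling 59.8% of all genes were called, 2932 with more and 4201 with fewer polionotus counts.

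Of 6 ligands of Erbb4 and neurexin partners of Nxph1 tested, 3 were higher and 0 were lower in polionotus brains, near the 52.4% of all genes called, with a median of 0.07. Hbegf (0.29, adjusted p = 0.00329) and Nrg1 (0.18, adjusted p = 0.0111) encode ligands of the receptor, and Nrxn2 (0.29, adjusted p = 0.0111) a neurexin. With the hindbrain covariate only Hbegf of these passed. In the hybrids 5 of 7 had more and 1 had fewer polionotus counts, against 34.2% and 21.5% of all genes. The median was 0.94, against 0.11 over all genes. Without both replicates 3 the counts were 3 and 1, and the share of all genes called fell from 55.7% to 38.3%. Nrg2 had a share of 91.2% ± 4.88 and Nrg1 75.7% ± 4.78, while Btc, betacellulin, had 26.4% ± 2.27 (SD, n = 6 each), from as few as 74, 96 and 21 counts in an animal.

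Gad1 and Gad2, which make GABA, are shared by interneurons and other inhibitory neurons. Of 4 listed genes of the GABA phenotype tested, 0 were higher and 2 lower in polionotus brains, with a median of -0.23. Of all genes 52.4% were called, 32.6% as higher and 19.8% as lower. Gad1 had 80.8 to 95.1 TPM in polionotus brains and 96.0 to 121 TPM in maniculatus brains (-0.31, SE 0.06, adjusted p = 0.00131). The species did not overlap, as in 32.8% of all genes, and the call held in all 21 alternatives. Striatal medium spiny neurons also make GABA, and the 10 genes that mark them, all detected, summed to 1561 to 1827 TPM in polionotus brains and 1061 to 1487 TPM in maniculatus brains. Their part in the Gad1 values was not tested. In the hybrids 2 of the 4 had more and 1 had fewer polionotus counts, against 34.2% and 21.5% of all genes. There Gad1 had a polionotus share of 47.8% ± 0.766 (SD, n = 6) and was called lower (-0.13, adjusted p = 0.00386). It was not called in a model without a term per animal (adjusted p = 0.262). Gad2 had a share of 59.6% ± 1.25 (SD, n = 6) and was called higher (0.56, adjusted p = 2.97e-05).

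Of 12 transcription factors of interneuron lineages, 2 were higher and 0 lower in polionotus brains, against 52.4% of all genes called, with a median of 0.13. Prox1, a factor of caudal interneurons and dentate granule cells, had 13.7 ± 1.27 TPM in polionotus brains and 9.73 ± 1.29 TPM in maniculatus brains (SD, n = 6 each; 0.46, SE 0.08, adjusted p = 0.000631). The species did not overlap, as in 32.8% of all genes. Npas1 (0.26, adjusted p = 0.0410) lost its call in 12 of 21 alternatives. In the hybrids 3 of 9 had more and 2 had fewer polionotus counts (median 0.04), near the 55.7% of all genes called. Prox1 had a share of 76.9% ± 1.77 (SD, n = 6), and its allele and species differences were both positive in every alternative. Dlx1 had a mean share of 83.8% with a range of 47.8% to 92.7%, and did not pass without both replicates 3 (2.57, adjusted p = 0.0707). Dlx2 was called on as few as 24 counts in an animal and lost its call in 5 of 12 alternatives. Maf (43.6% ± 2.14) and Adarb2 (45.3% ± 0.979) were called lower, Adarb2 not in a model without a term per animal (adjusted p = 0.0786).

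Of 24 other class genes tested, 3 were higher and 3 lower in polionotus brains, and 2 and 6 with quantile normalization. Of all genes 52.4% were called as deposited and 53.5% with quantile normalization. The median of the 24 was -0.01. Tac3, a tachykinin precursor, had 18.4 to 26.0 TPM in polionotus brains and 2.08 to 8.95 TPM in maniculatus brains (1.71, SE 0.25, adjusted p = 0.000224). Acan, the aggrecan of perineuronal nets, had 1.67 to 2.03 TPM in polionotus brains and 1.09 to 1.27 TPM in maniculatus brains (0.35, adjusted p = 0.000182). Htr3a, the serotonin receptor of caudal interneurons, had 1.19 to 1.77 TPM in polionotus brains and 1.88 to 2.49 TPM in maniculatus brains (-0.39, adjusted p = 0.00109). These 3 did not overlap, as in 32.8% of all genes, and held in all 21 alternatives. Crhbp (0.26), Ndnf (-0.20) and Kit (-0.13) lost their calls in 10, 3 and 12 of 21.

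In the hybrids 7 of 23 of these genes had more and 6 had fewer polionotus counts, and 5 and 9 with each allele scaled to its own total. Of all genes 55.7% were called, and 59.8% under that scaling, so both counts were near the background. The median was 0.09. Gabrd, a GABA receptor subunit, had a share of 79.4% ± 2.46, Cplx1, a complexin, 74.2% ± 6.06, and Cnr1, the cannabinoid receptor of Cck cells, 67.6% ± 1.41 (SD, n = 6 each). Sncg, a synuclein that marks a class of Cck cells in mice, had 22.7% ± 2.79. These 4 held in all 13 alternatives. Syt2 (45.6% ± 1.53) and Kcnc2 (47.0% ± 1.11) were called lower, and Kcnc2 did not pass without both replicates 3 (-0.15, adjusted p = 0.0650). Neither passed in a model without a term per animal (adjusted p = 0.153 for Syt2 and 0.366 for Kcnc2).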

How the data were processed

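Per the labels' protocols, RNA was extracted from whole brains and libraries were made with a stranded mRNA kit. STAR 2.4.2a is the aligner that the submitters' processing notes name. The sources used here do not give the build, the annotation, the TPM tool or how reads were assigned to alleles. The authors deposited TPM for the 12 parental libraries (20732 rows, sums 977912 to 983476) and whole-number counts per gene and allele for the 6 hybrids. A row naming no gene, 0.789% to 2.48% of a library's TPM, was left out. The names of 27 TPM rows and 19 count rows had been turned into dates.

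Parental libraries were tested with limma 3.58.1 (R 4.3.3; mean trend) on log2(TPM + 1), keeping the 14366 genes that averaged 1 TPM or more, with 1 mean per group. Such fold changes understate changes of low genes. Hybrid counts were tested with edgeR 4.0.16 (quasi-likelihood): sums of both alleles with TMM between trials, and allele counts in a model with a term per animal, taking both alleles' summed total as library size and genes that averaged 20 counts or more. All tests were two-sided with Benjamini-Hochberg adjustment over all genes. Alternatives included DESeq2 1.42.0, other scalings, filters and pseudocounts, covariates, and leaving out libraries. The scripts were tested on simulated data.

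The 10 genes and the lists were chosen with earlier results of these data known. From each pathway list, up to 3 called genes per direction with the smallest p were named in the species and allele comparisons, apart from genes that are not reported here. Replicates were not identical in any pair (Spearman 0.952 to 0.994 across genes). The gene order came from a RefSeq annotation of P. maniculatus, of a build not known to be that of the files, so no coordinates are given.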

Additional observations from a re-analysis of the deposited data

Results flagged for a closer look

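Among 30 sets of samples examined for a single sample far from the others, 4 held such a value, and chance gives about 1 in 20. Vip was at 26.7 TPM in maniculatus control replicate 3, below the other 5 maniculatus libraries. Cck was at 98.5 TPM in the same library, also below the other 5. Lamp5 was at 150.2 TPM in polionotus control replicate 2, below the other 5 polionotus libraries. The polionotus share of Lamp5 was 48.2% in F1 burrowing replicate 2, below the other 5 hybrids. The parental libraries are among the 3 that stood apart.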

How the results depend on the processing

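Of 720 values of single genes recomputed under an alternative, 649 kept their direction and their side of the threshold, and the cause of the other changes was not tested. Between species, members called numbered 1 with quantile normalization, 6 without the 3 libraries apart and 1 to 3 leaving out single libraries. In control animals the number was 0 with no expression filter, quantile normalization, median scaling or the hindbrain covariate, 3 without the 3 libraries apart and 0 to 2 leaving out single libraries, and the covariate left 2645 of all genes called. After burrowing it was 2 without the 3 libraries apart and 0 to 1 leaving out single libraries. All genes called between trials in P. polionotus numbered 3 with no filter and 0 to 2 leaving out single libraries. In P. maniculatus they numbered 0 with a pseudocount of 0.1, 2 with the covariate and 1 to 6 leaving out single libraries. For species by trial they numbered 1 with a pseudocount of 5 or no filter and 0 to 2 leaving out single libraries. In hybrids, 1 member was called between alleles without both replicates 3, where 38.3% of all genes were called. DESeq2 called 2 genes between trials and 60 for allele by trial, and edgeR called 10 to 73 for allele by trial leaving out single animals.

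Signs turned, never with a call except for Nxph1 between alleles (-0.15 with each allele scaled to its own total), as follows. Vip turned between species with the covariate (-0.014) and without the 3 libraries (-0.021), and in controls under the same (-0.12 and -0.086). After burrowing Vip turned with quantile normalization (-0.025), median scaling (-0.014) and, within -0.016 to 0.044 leaving out single libraries, without polionotus burrowing replicate 2. Nxph1 turned in controls with quantile normalization (-0.0044) and median scaling (-0.031), and between species it ran from -0.017 to 0.0175 leaving out single libraries. Sst turned in controls with the covariate (-0.071), Cck there ran from -0.32 to 0.16 leaving out single libraries, and Lhx6 turned between polionotus trials with the covariate (0.13) and without the 3 libraries (0.011).

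Replicate numbers were not taken to pair the samples, since not every same-number correlation of deviations was over 0.1: they ran from -0.23 to 0.55 in parental libraries and from -0.57 to 0.19 in hybrids. As a hint from the data, the maniculatus burrowing and control libraries each correlated best with their own number in the other trial (0.25, 0.13 and 0.099). Maniculatus control with polionotus burrowing libraries of the same number gave 0.24, 0.18 and 0.55. Yet maniculatus control replicate 1 was closer to polionotus burrowing replicate 2 (0.248), and maniculatus control replicate 2 to polionotus burrowing replicate 1 (0.23). The 0.55 lay between libraries that stood apart. With the replicate number as a block, members called were 2 in controls and 1 after burrowing, Calb2 each time added, and Reln passed between species (adjusted p = 0.0250). Without the animal block, Vip was not called between alleles (adjusted p = 0.262) and 16 genes were called for allele by trial. TPM hold no depth; in hybrids Vip had the fewest counts (331).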
